A study of Mus musculus with 4 samples.

Results

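Developmental transcription factors outside the Hox clusters were examined for the histone marks H3K9me3 and H3K36me3 in mouse embryonic stem (ES) cells. The genes were those of the Pax, Lhx, Dlx, Nkx, Irx, Gata, Fox and Tbx families and of the Six-family, recognised by a symbol in which the family name is followed by the usual number or letter code, with the Wnt genes as signalling molecules for comparison. Of the 21418 autosomal protein-coding genes in the annotation, 125 met this rule. They comprised 106 transcription factors in 9 families and 19 Wnt genes. By family there were 9 Pax, 8 Lhx, 6 Dlx, 14 Nkx, 6 Six-family, 6 Irx, 5 Gata, 40 Fox and 12 Tbx genes. A further 5 genes with such symbols (Foxo4, Foxp3, Foxr2, Gata1 and Tbx22) lie on a sex chromosome and were left out.

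ChIP-seq, the sequencing of DNA recovered with an antibody to a chromatin mark, was performed for both marks in wild-type (WT) cells and in cells with a targeted H3.3 G34R mutation, giving 4 libraries in 4 groups of 1 library. Both cell types were labelled as strain 129S1/SvImJ at low passage, and were grown in serum with leukemia inhibitory factor. The WT cells had unmodified H3f3a and H3f3b genes, whereas the mutants were heterozygous for a single-copy H3f3a G34R allele driven by the endogenous H3f3a promoter, with unmodified H3f3b; the labels do not say whether the mutant library came from 1 clone. The files gave 1 list of enriched regions per mark, with 32502 regions for H3K9me3 and 31593 for H3K36me3, and a region entered a list if it was enriched in WT or in G34R cells. WT and G34R cells therefore could not be compared at these genes, the depth behind each region is unknown, and no result below has a replicate check. None of the 4 libraries was an input library, and the paper describes no input correction of its ChIP-seq read counts. A listed region is therefore a place of high read count, not one of enrichment over input. The cell type itself could not be checked against marker expression, since the lists hold positions only. Shares are given with 95% Wilson intervals, which cover counting error over genes or over 200 bp bins and nothing else. Genes of a family share sequence and neighbouring bins share their source, so neither are independent replicates.

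The genes studied here pattern the embryo. Pax, Lhx, Dlx, Nkx, Six-family and Irx proteins carry a homeodomain, a paired domain or both. Gata proteins bind DNA through zinc fingers, Fox proteins through a forkhead domain and Tbx proteins through a T-box, whereas Wnt genes encode secreted ligands. Most of these genes are silent in pluripotent cells, have CpG-rich starts and are well-known targets of Polycomb repression, a system marked by H3K27me3, which was not measured in these libraries. H3K36me3 is deposited along the bodies of transcribed genes, and H3K9me3 is the classical mark of heterochromatin.

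Stretches of coding sequence are shown to illustrate the base composition of the bins that the comparisons turn on. Each is a 200 bp bin lying wholly in coding sequence, on the plus strand of NCBIM37 (the assembly equivalent to mm9), in lower case with each CpG dinucleotide in capitals. The motif CG reads the same on both strands. Across the 48549 bins of this kind in the annotation the median was 4 CpG and the median G+C was 52.5%. The first 3 bins lay in H3K9me3 regions of genes without any H3K36me3. They came from Tbx2, a repressor active in heart and limb (chr11:85646801-85647000), from Irx4, a regulator of the heart ventricle (chr13:73405801-73406000), and from Foxd3, a pluripotency and neural crest factor (chr4:99323401-99323600).
Tbx2: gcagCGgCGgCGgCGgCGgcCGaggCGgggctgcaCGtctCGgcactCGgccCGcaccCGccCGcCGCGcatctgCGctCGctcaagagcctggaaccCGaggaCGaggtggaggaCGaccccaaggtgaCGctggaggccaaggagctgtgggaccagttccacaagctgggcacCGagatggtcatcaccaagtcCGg
Irx4: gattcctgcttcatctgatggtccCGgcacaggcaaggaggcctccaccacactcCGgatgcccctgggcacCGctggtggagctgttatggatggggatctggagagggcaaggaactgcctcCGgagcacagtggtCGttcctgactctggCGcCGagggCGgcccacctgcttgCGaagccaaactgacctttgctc
Foxd3: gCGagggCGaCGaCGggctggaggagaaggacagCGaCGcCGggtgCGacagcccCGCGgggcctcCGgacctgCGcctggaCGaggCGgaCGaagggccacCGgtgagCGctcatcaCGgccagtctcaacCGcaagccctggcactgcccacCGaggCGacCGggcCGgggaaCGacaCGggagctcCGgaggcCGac
These bins held 23, 9 and 27 CpG, with G+C contents of 71.5%, 63.0% and 74.5%. Of all whole-coding bins, 3.51% held at least as many CpG as the Tbx2 bin, 22.0% at least as many as the Irx4 bin and 1.91% at least as many as the Foxd3 bin. The next pair of bins lay in H3K36me3 regions, in Foxm1, a cell-cycle regulator (chr6:128315801-128316000), and in Foxo1, an effector of insulin signalling (chr3:52149001-52149200).
Foxm1: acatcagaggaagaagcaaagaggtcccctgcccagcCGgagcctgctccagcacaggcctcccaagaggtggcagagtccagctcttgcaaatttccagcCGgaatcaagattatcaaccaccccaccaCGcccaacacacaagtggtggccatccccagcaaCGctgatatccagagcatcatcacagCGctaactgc
Foxo1: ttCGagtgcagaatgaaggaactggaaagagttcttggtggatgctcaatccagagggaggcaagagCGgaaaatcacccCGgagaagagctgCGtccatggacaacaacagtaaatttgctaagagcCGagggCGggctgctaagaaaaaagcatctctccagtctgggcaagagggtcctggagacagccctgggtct
The Foxm1 bin held 5 CpG with a G+C of 57.0% and the Foxo1 bin 6 CpG with a G+C of 53.0%. At least as many CpG were found in 48.4% and 39.8% of whole-coding bins, respectively. Base composition did not track list membership in every case. The last pair shows a bin of Tbx3 with the median number of CpG, a T-box factor expressed in ES cells (chr5:120122201-120122400), which was in an H3K9me3 region, and a bin of Six5, a broadly expressed homeodomain factor (chr7:19681601-19681800), which was in neither list.
Tbx3: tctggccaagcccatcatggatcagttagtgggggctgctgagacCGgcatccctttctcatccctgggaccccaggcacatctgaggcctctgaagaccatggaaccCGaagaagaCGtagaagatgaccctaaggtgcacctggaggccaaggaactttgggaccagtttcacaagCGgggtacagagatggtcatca
Six5: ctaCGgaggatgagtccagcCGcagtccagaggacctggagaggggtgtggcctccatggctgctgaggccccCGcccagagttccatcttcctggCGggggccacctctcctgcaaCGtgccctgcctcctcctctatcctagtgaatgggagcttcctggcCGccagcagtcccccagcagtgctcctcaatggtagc
The Tbx3 bin held 4 CpG with a G+C of 56.0%, and 58.2% of whole-coding bins held at least as many. The Six5 bin held 6 CpG with a G+C of 65.0%. The Tbx2 and Foxd3 bins lay within 1 kb of the gene start, and in the comparisons below they count as start bins. The bins of Irx4, Foxm1, Foxo1, Tbx3 and Six5 lay further into their genes. The CpG numbers of the H3K9me3 and H3K36me3 bins shown are therefore not matched for distance from the start. These bins are illustrations, and the shares over all bins are given below.

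H3K9me3 regions were found in most of the developmental genes. Of the 125 genes, 113 (90.4%, interval 84.0 to 94.4%) held at least 1 bp of an H3K9me3 region, compared with 41.1% of the 21293 other autosomal protein-coding genes. H3K9me3 lay in the window of 1 kb on both sides of the gene start in 105 genes (84.0%, interval 76.6 to 89.4%) against 19.3% of other genes. It lay in coding sequence in 105 genes, also 84.0%, against 26.5%. H3K36me3 showed the opposite balance. It was present in 14 genes (11.2%, interval 6.79 to 17.9%), compared with 35.3% of other genes. Coding sequence carried H3K36me3 in 13 genes (10.4%, interval 6.18 to 17.0%) against 32.1%. H3K36me3 was listed at 0 of 125 starts (interval 0 to 2.98%), and at 2.75% of other starts. Both marks were found in 11 genes (8.80%) against 12.6%, and 5 genes (4.00%) had a bin in both lists against 7.45%. In all, 9 of the 125 genes carried neither mark, compared with 7693 of the 21293 other genes.

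The part of each gene that was covered differed even more. The median H3K9me3 coverage was 41.7% of the bins of a developmental gene, whereas the median of other genes was 0%. Among genes with any H3K9me3 the medians were 55.0% and 5.82%. H3K9me3 covered at least 50% of 57 of the developmental genes and every bin of 25 of them, compared with 749 and 175 of the 21293 other genes. The developmental genes were also shorter, with a median length of 9398 bp against 15566 bp, and G+C rich at the start, with a median of 57.5% against 50.8% and 116 against 65 CpG in the window.

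**Figure D1:**
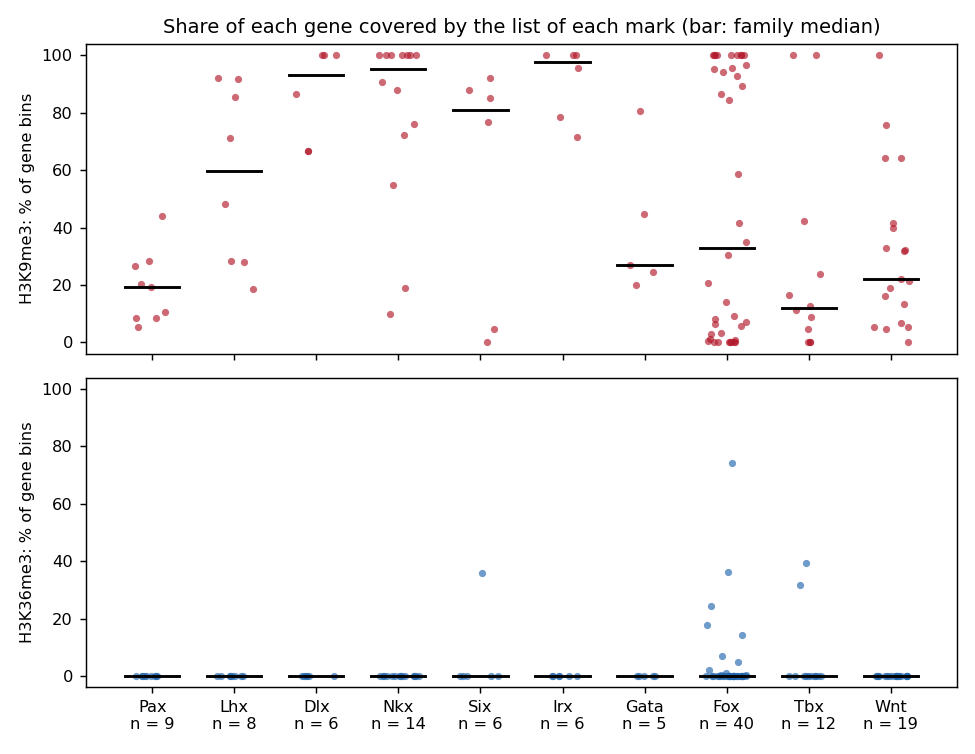
Percentage of the 200 bp bins of each gene that lay in H3K9me3 regions (top) or H3K36me3 regions (bottom), by family; each point is 1 gene, n is the number of genes and the black bar is the family median. H3K9me3 medians are highest in Irx (97.9%), Nkx (95.5%) and Dlx (93.3%), while H3K36me3 is above 0 only in Fox genes, Tbx genes and Six4.

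Among the homeodomain families, the short Irx, Nkx and Dlx genes were almost filled with H3K9me3. All 6 Irx genes, which pattern the heart, limb and neural tube, carried the mark, with a median of 97.9% of bins and a range from 71.4% in Irx6 to 100% in Irx1, Irx3 and Irx5. Irx4 had the most covered sequence of the family with 9000 bp, 95.7% of the gene (chr13:73397945-73407068). Of the family, 3 genes (Irx3, Irx5 and Irx6) lay on chromosome 8, where 57.5% of the other genes carried H3K9me3, more than on any other autosome. On chromosome 13, where 39.8% of other genes carried the mark, the 3 remaining Irx genes were covered over 78.6% to 100% of their bins. The part of the chromosome in the Irx result was not tested. Without chromosome 8, 89.9% of 119 developmental genes and 40.2% of other genes carried H3K9me3.
All 14 Nkx genes carried H3K9me3, and their median coverage was 95.5%. Nkx2-2, a determinant of ventral neural and pancreatic identity (chr2:147003282-147019979), had the most covered sequence with 14800 bp in 6 regions, or 88.1% of the gene. Coverage was 100% in 7 members, including Nkx2-1 of the thyroid and lung, Nkx2-5 of the heart and Nkx6-1 of the pancreas. Nkx6-3, a stomach factor, had the lowest share with 10.0%, and it was also the single Nkx gene with no H3K9me3 at the start.
The 6 Dlx genes, regulators of forebrain interneurons and of the jaws and limbs, are arranged as neighbouring pairs in the genome. Coverage was 100% in Dlx1 (6200 bp), Dlx2 (3600 bp) and Dlx5 (4400 bp), 86.7% in Dlx4 and 66.7% in Dlx3 and Dlx6. A single region of 10800 bp (chr2:71365201-71376000) covered the whole of Dlx1 and ran on past its end.

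Most Lhx, Pax and Six-family genes carried large H3K9me3 domains that left part of the gene uncovered. The Lhx and Pax genes are longer as families. All 8 Lhx genes, which encode LIM-homeodomain factors of the nervous system, carried the mark at their starts. Lhx2, required for the eye and cortex (chr2:38194801-38225253), had 21800 bp in 9 regions (71.2%), of which a single region spanned 14000 bp. Lhx5 was covered by 1 region of 9000 bp (91.8%), and Lhx1, an organiser gene, was covered over 92.1%. Lhx3 of the pituitary and motor neurons followed with 85.4%, and Lhx9 of the gonad and limb had 48.3%. Lhx4 had 28.2%, and Lhx8 had the lowest share, 18.7%.
All 9 Pax genes were listed, with a median coverage of 19.2% and no gene above 43.9% (Pax9). Pax7, a factor of neural crest and muscle stem cells (chr4:139292977-139389445), had 18600 bp in 9 regions, and 1 region of 12800 bp covered its start. Pax2 of the kidney and midbrain had 16800 bp, Pax5 of B cells and midbrain 15400 bp, and the eye regulator Pax6 9800 bp (28.5%). Pax3 of the neural crest and somites had 10200 bp (10.6%), Pax1 and Pax9 of the sclerotome had 8400 and 9400 bp, and Pax8 of the thyroid and kidney had 3000 bp (5.43%). Pax4, a pancreatic endocrine factor, had 600 bp and was the only Pax gene without the mark at its start. Its window had 15 CpG, the lowest number among the 9 Pax genes.
In the Six-family (6 genes), Six2, Six3 and Six6 were covered over 85.0%, 88.0% and 76.9%. These factors act in kidney, forebrain and eye. Six3 (chr17:86012948-86031153) had 16200 bp, nearly all of it in a region of 19200 bp that began upstream of the gene start. Six4 and Six5 stood apart. Six4 had 600 bp of H3K9me3, and Six5 had none.

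**Figure D2:**
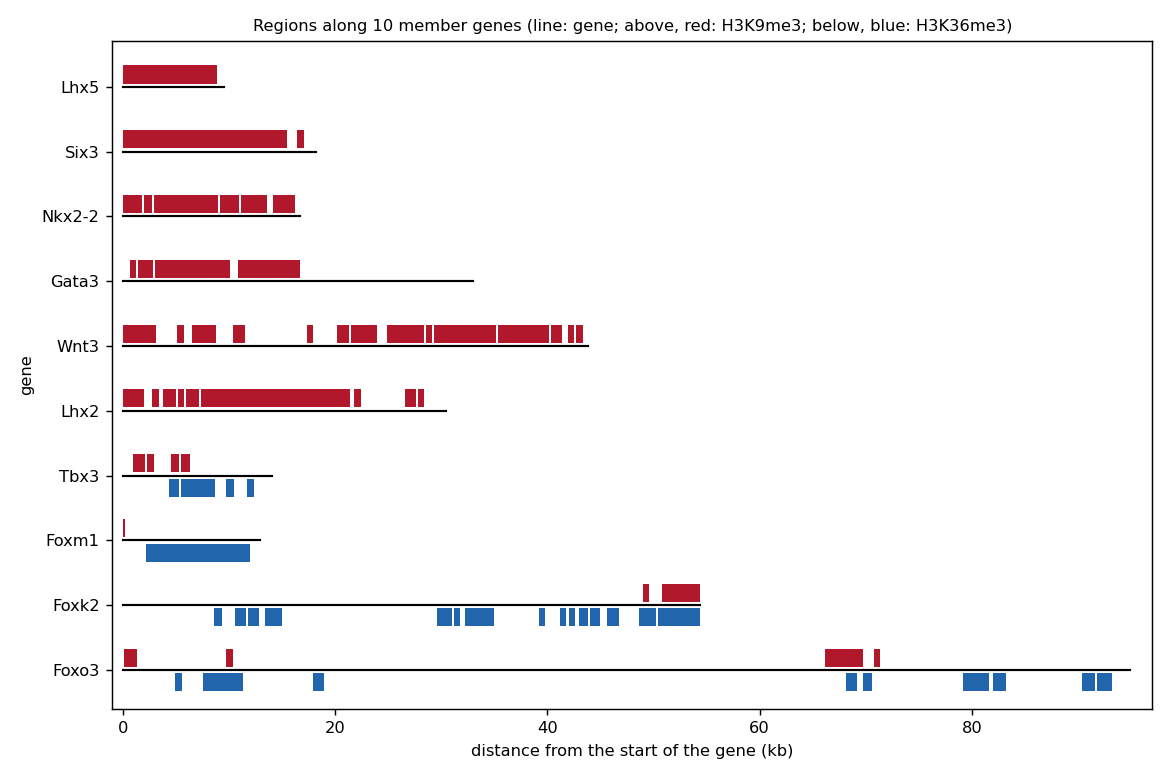
Enriched regions along 10 genes drawn to scale from the gene start (x axis, kb); the black line is the gene, red boxes above it are H3K9me3 regions and blue boxes below it H3K36me3 regions. H3K9me3 fills Lhx5 and most of Six3 and Nkx2-2, while Foxm1 has 400 bp of H3K9me3 within the gene at its start and 9800 bp of H3K36me3 behind it.

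Gata genes carried H3K9me3 in all 5 cases, including both endoderm regulators. Gata4 (chr14:63817759-63890529) had 19600 bp in 12 regions, 26.8% of the gene, and Gata6 had 6600 bp, 19.8%. Gata3, a T cell and trophoblast factor, had 14800 bp (44.6%), Gata2 of blood progenitors 10800 bp (80.6%), and Gata5 2400 bp (24.5%). The mark was in the start window of every one of them. In Gata3, however, the annotated start was covered less, with 400 bp of the window listed, and the regions lay further into the gene.

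The Fox family, the largest with 40 genes, was split. H3K9me3 was present in 33 genes and at the start of 29. Several short forkhead genes were almost wholly covered: Foxa2, a regulator of endoderm and floor plate, over 100% of its 4200 bp of bins, and Foxc2, Foxe1, Foxf1a, Foxl2 and Foxd2 over 100%. Foxd3, although active in pluripotent cells, was covered over 84.6% (2200 bp in 1 region) and carried no H3K36me3. Foxa1, a partner of Foxa2 in endoderm, reached 89.3%. The same held for Foxb1 and Foxb2 (94.1% and 100%), Foxc1 (95.2%), Foxd1 and Foxd4 (92.9% and 100%), Foxe3 of the lens (100%), Foxf2 (96.6%) and Foxq1 (86.7%). Short length did not go with high coverage in every case. Intermediate coverage was found in Foxi1, Foxi2 and Foxi3 of the inner ear and placodes (35.0%, 58.8% and 41.7%) and in Foxj1, the regulator of motile cilia (20.8%). The longer Foxo6 (20271 bp) had 30.4%. At the other end, long forkhead genes had little H3K9me3 relative to their length. Foxn3 had 14400 bp in 15 regions, but these made up 5.64% of a gene of 255072 bp. Foxp1 had 0.644% and Foxp2 0.370% covered. No H3K9me3 was listed in Foxa3, Foxh1, Foxk1, Foxn1, Foxo1, Foxr1 and Foxs1, of which Foxh1 (1665 bp) and Foxs1 (1311 bp) are among the shortest of the family. Foxh1, a mediator of Nodal signalling, and Foxo1 are thought of as active in ES cells, whereas Foxa3 of the liver and Foxn1 of the thymus are not.

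Of the 12 Tbx genes, 9 carried H3K9me3, and these 9 had it at the start. Tbx1 of the pharynx and Tbx2 were fully covered, over 6400 and 9600 bp. Tbx4 of the hindlimb had 12600 bp (42.3%), Tbx5 of the heart and forelimb 8400 bp (16.5%) and Tbx3 3400 bp (23.9%). The remaining carriers, Tbx21 of T helper cells, Tbx18, Tbx15 and Tbx20, had 12.5%, 11.2%, 8.77% and 4.69%. No H3K9me3 was listed in Tbx6 of the paraxial mesoderm, in Tbx10 or in Tbx19 of the pituitary. The start windows of these 3 genes held 50, 27 and 34 CpG, compared with a family median of 85. Tbx5, with 37 CpG, carried the mark at its start all the same.

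Among the Wnt ligands, H3K9me3 was found in 18 of 19 genes (94.7%) and at 17 starts, and H3K36me3 in none. Wnt genes were longer than the transcription factors (median 22238 against 6890 bp). Their median covered share was lower, 21.9% of bins against 51.7%, while their median covered length was higher, 5000 against 3600 bp. At least 50% of the gene was covered in 4 of 19 Wnt genes and in 53 of 106 transcription factors. Wnt3, needed for the primitive streak (chr11:103635464-103679271), had 28200 bp in 14 regions, the most of the 125 genes, and 64.1% of its bins were covered. Wnt1 of the midbrain was covered over 100%, Wnt10b over 75.8% and Wnt10a over 64.1%. Wnt5a, a ligand of the non-canonical pathway, had 9600 bp (41.7%), and Wnt3a, a ligand of the canonical pathway, had 8200 bp (19.1%). Among the other ligands with the mark, coverage ran from 4.78% in Wnt2 to 39.7% in Wnt6, with Wnt4, the ligand of kidney and ovary, at 5.36%. Several Wnt genes are neighbours: Wnt3 and Wnt9b, Wnt1 and Wnt10b, Wnt6 and Wnt10a, and Wnt3a and Wnt9a lay side by side, and each of these 8 carried H3K9me3 at its start. Wnt16 carried neither mark, and Wnt8a had H3K9me3 only away from its start. Without the Wnt genes, 95 of 106 transcription factors (89.6%) carried H3K9me3 and 14 (13.2%) carried H3K36me3.
Genes that receive and pass on the Wnt signal were counted beside the ligands. Of 15 receptor genes, 12 held H3K9me3 (80.0%, against 41.1% of other genes) and 6 held H3K36me3, a share near the 35.3% of other genes. The short Frizzled genes Fzd2 and Fzd1 were covered by H3K9me3 over 78.9% and 73.9%, while Fzd5 and Fzd7 had H3K36me3 alone, over 35.1% and 48.0%. Of 15 intracellular transducers and secretion factors, 7 held H3K9me3 (46.7%, against 41.1% of other genes) and 12 held H3K36me3 (80.0%, against 35.3%). The central effector Ctnnb1 had 12800 bp of H3K36me3 and no H3K9me3, and the same was true of Gsk3a (7600 bp) and of Dvl1, Dvl2 and Dvl3 (4600, 8200 and 5000 bp). Lef1 and Tcf7l2, nuclear partners of Ctnnb1, had H3K9me3 (10600 and 2600 bp) and no H3K36me3. Their relatives Tcf7 and Tcf7l1 held both marks, with 12800 and 3200 bp of H3K36me3 and 1600 bp of H3K9me3 each. Of 10 secreted inhibitors, 7 held H3K9me3 and 1 (Sfrp1) held H3K36me3. Sfrp5 and Dkk1 had the highest H3K9me3 coverage among them, 72.7% and 50.0%. The 15 transducers were long, with a median length of 34788 bp, while the receptors had a median of 7191 bp. The shares of other genes given here are not matched for length or G+C. Of other genes of 20 to 100 kb, 53.3% held H3K9me3 and 47.7% H3K36me3, and at 5 to 20 kb 32.2% and 42.8% did. The receptors had a median start G+C of 59.9%. Other genes at 55 to 60% held H3K9me3 in 53.8% and H3K36me3 in 51.2%.

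The marks were next read along the genes. In 54 H3K9me3-carrying developmental genes of at least 10 kb, coverage was highest at the 5′ end. With each gene divided into 10 equal parts, on average 63.4% of the bins of the first part were listed, then 42.2% of the next and 26.9% of the one after it, with a low of 9.58% in part 7 and 15.0% in the last. In the 6950 other carriers the first part reached 14.2% and the remaining parts lay between 6.30% and 7.63%. H3K36me3 ran the other way. In 13 developmental genes with H3K36me3 it rose from 4.07% in the first part to 31.3% and 31.0% in parts 8 and 9, and the 5712 other carriers went from 4.42% to 41.5% in part 9. Regions of H3K9me3 that touched the developmental genes were wide. There were 347 of them with a median of 1000 bp, and 32.3% measured at least 2 kb, against a median of 800 bp and 10.7% in the rest of the autosomal list. For H3K36me3, 61 regions touched these genes, and 13.1% of them measured at least 2 kb against 25.8% in the rest.

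The higher share of H3K9me3 was seen at each G+C content and gene length with more than 1 developmental gene. Among genes whose start window had 50 to 55% G+C, the mark was at 24 of 27 developmental starts (88.9%, interval 71.9 to 96.1%) and at 17.7% of other starts. At 55 to 60% the values were 37 of 44 (84.1%) and 35.9%, at 60 to 65% they were 28 of 32 (87.5%) and 54.2%, and at 65% or more they were 11 of 12 (91.7%, interval 64.6 to 98.5%) and 61.5% (interval 56.3 to 66.4%), where the intervals overlapped. In other genes the share thus climbed with G+C, while in the developmental genes it was already high at 50 to 55%. Below that it was lower, at 4 of 9 for 45 to 50% (44.4%, interval 18.9 to 73.3%), against 9.56% of other genes. By CpG number, 8 of 19 starts with 20 to 59 CpG (42.1%), 27 of 28 with 60 to 99 (96.4%) and 70 of 77 with 100 or more (90.9%) carried H3K9me3, and the values of other genes were 11.2%, 19.5% and 38.1%. In the coding sequence, H3K9me3 was found in all 24 developmental genes with a coding G+C of 65% or more and in 65.0% of the 343 others in that band. Length changed the share of other genes much more than that of developmental genes. H3K9me3 was carried by 38 of 42 developmental genes under 5 kb (90.5%) and by 17.4% of others, by 32 of 36 (88.9%) and 32.2% at 5 to 20 kb, by 37 of 41 (90.2%) and 53.3% at 20 to 100 kb, and by 6 of 6 and 86.6% at 100 kb or more. In the longest class the intervals overlapped as well.

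**Figure D3:**
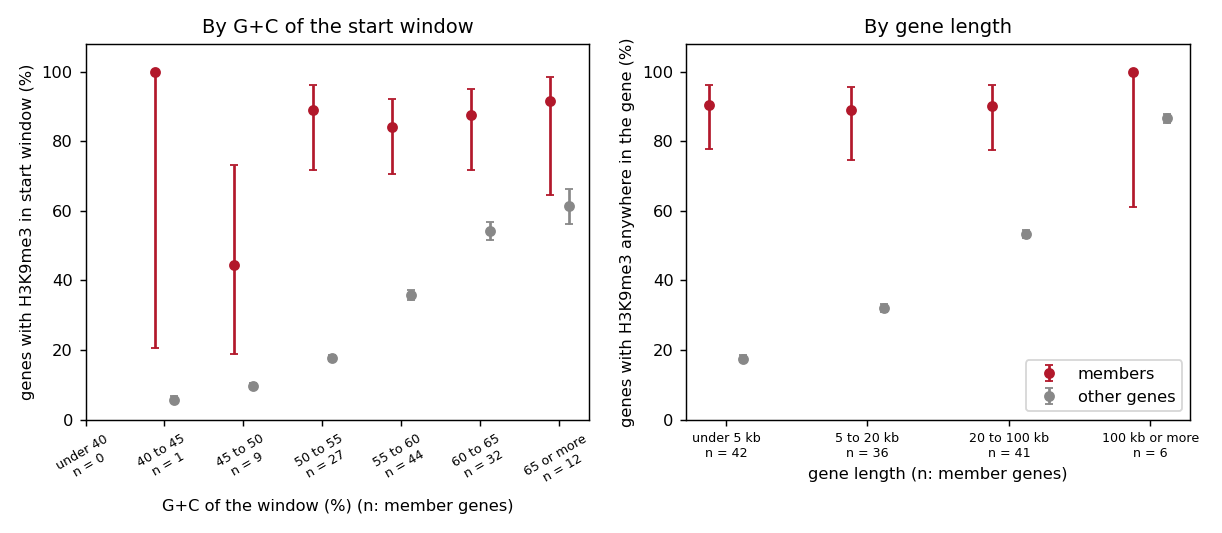
Percentage of genes with H3K9me3 in the start window by G+C of that window (left) and anywhere in the gene by gene length (right), for the 125 developmental genes (members, red) and other autosomal protein-coding genes (grey); bars are 95% Wilson intervals, n counts developmental genes, and the G+C band without such genes is empty. Red points stay between 84.1% and 91.7% from 50% G+C upwards, while grey points climb from 17.7% to 61.5%.

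The same comparison was made over single bins of 200 bp, each placed in a class (within 1 kb of a start, coding, untranslated, other exon or intron) and a G+C band. The developmental genes had 19258 bins, of which 3265 (17.0%) lay in H3K9me3 regions, compared with 3.50% of the bins of other genes. Other genes taken at the same classes and G+C bands gave 4.90%, so that the observed share was 3.46 times that value. By class, H3K9me3 held 568 of 750 start bins (75.7%), 501 of 1168 coding bins (42.9%), 29.6% of untranslated bins and 1815 of 16043 intron bins (11.3%). The shares in other genes at the same G+C were 20.2%, 12.5%, 5.53% and 3.59%. In coding bins with 65% G+C or more, 79.6% were listed in developmental and 36.3% in other genes, and at 45 to 50% the values were 18.7% and 4.00%. Introns made up 83.3% of the bins and 55.6% of those with H3K9me3. Over all classes, the H3K9me3 share of bins of other genes rose from 1.61% under 40% G+C to 29.6% at 65% or more. Without an input library, the part of base composition in the H3K9me3 shares was not tested. H3K36me3 held 443 bins (2.30%), against 6.95% at the same classes and G+C bands in other genes, a ratio of 0.331. Of 1168 coding bins 109 (9.33%) were in the H3K36me3 list, against 27.4%. H3K36me3 was listed in 0 of the 750 start bins (interval 0 to 0.510%), where other genes at the same G+C had 0.920%, so few such bins are listed in any gene.

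**Figure D4:**
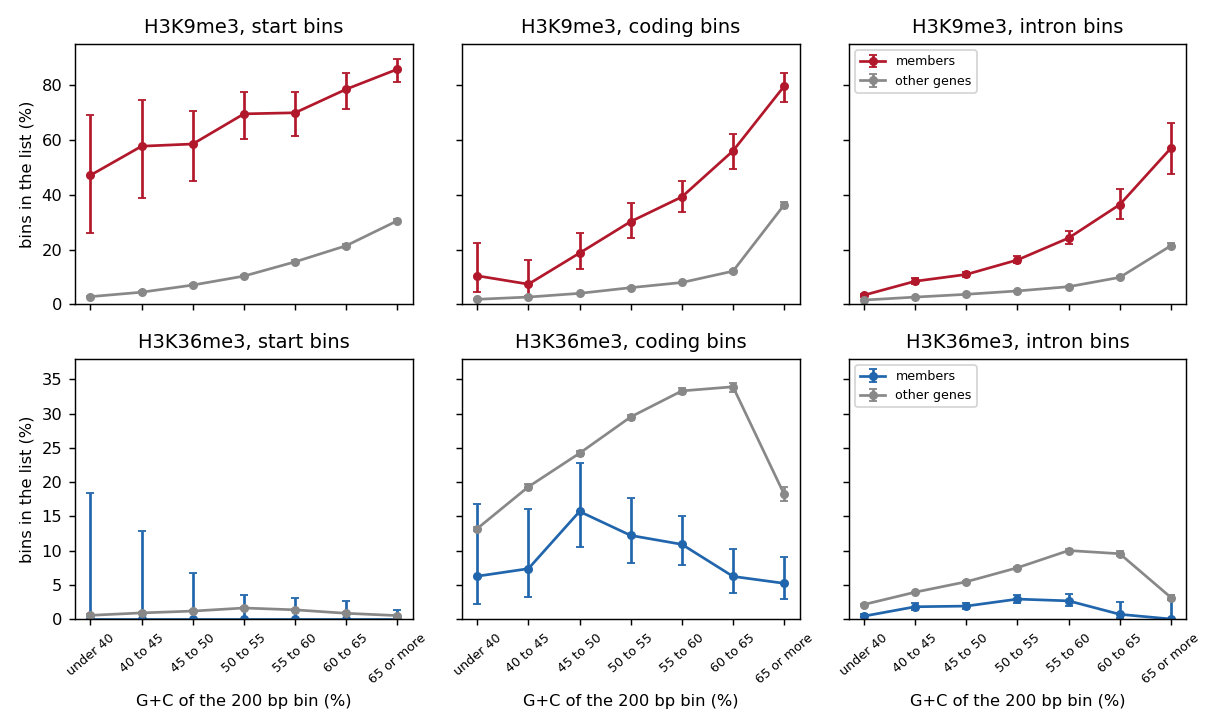
Percentage of 200 bp bins in H3K9me3 regions (top row) and H3K36me3 regions (bottom row) against the G+C of the bin, for start, coding and intron bins of the 125 developmental genes (members, coloured) and other genes (grey); bars are 95% Wilson intervals over bins. Coloured H3K9me3 values are above grey in each band, reaching 85.8% of start bins and 79.6% of coding bins at 65% G+C or more, and coloured H3K36me3 values are below grey in coding bins.

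H3K36me3 was found in 14 developmental genes, 11 of them Fox genes, with Six4, Tbx3 and Tbx6. The forkhead genes were Foxj2, Foxj3, Foxk1, Foxk2, Foxm1, Foxn2, Foxn3, Foxo1, Foxo3, Foxp1 and Foxp4. The most covered sequence was in Foxk2, a metabolic regulator of broad expression (chr11:121116808-121171210), with 19800 bp in 15 regions, 36.3% of the gene. Foxp4 followed with 14000 bp (24.3%), Foxo3, a stress-response factor, with 13400 bp (14.1%) and Foxk1, the close relative of Foxk2, with 10800 bp (17.8%). Foxm1 (chr6:128312985-128325911) was covered most completely. A single region of 9800 bp, from 2216 to 12015 bp behind the start, held 74.2% of its bins. Tbx3 had 5600 bp (39.4%), Six4 4800 bp (35.8%), Foxn2 3400 bp, Foxo1 1800 bp and Tbx6 1400 bp (31.8%). Foxj2, Foxp1, Foxj3 and Foxn3 had between 800 and 1200 bp. Genes with H3K36me3 were long, with a median length of 55958 bp against 7020 bp for the 111 without. By length, H3K36me3 was carried by 1 of 42 developmental genes under 5 kb (2.38%) and 13.2% of others, by 3 of 36 (8.33%) and 42.8% at 5 to 20 kb, and by 8 of 41 (19.5%) and 47.7% at 20 to 100 kb. At 100 kb or more the order was the other way, with 2 of 6 (33.3%, interval 9.68 to 70.0%) against 29.5%, and the intervals overlapped.
A list of 15 of these genes known for broad or ES cell expression contained 13 with H3K36me3, the exceptions being Foxd3 and Six5, and 12 (80.0%) with H3K9me3. This list was drawn up with earlier results of the same data known and holds every H3K36me3 carrier but Tbx6, while Foxh1, with neither mark, is not on it; its count is no independent evidence. Of the genes listed for neural and sensory development, 29 of 29 carried H3K9me3 and 0 carried H3K36me3. For the endoderm list the counts were 6 and 0 of 7, for mesoderm, heart and limb 15 and 1 of 16 (Tbx6 having the H3K36me3), and for blood and immune cells 3 and 0 of 3. Among all 125 developmental genes 90.4% carried H3K9me3 and 11.2% carried H3K36me3, and the endoderm, mesoderm, blood and neural counts of H3K9me3 are read against that share. As the list for broad or ES cell expression took 13 of the 14 H3K36me3 carriers, the low H3K36me3 counts of the remaining lists follow from how the lists were made, and nothing about lineage is read from any of them.

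**Figure D5:**
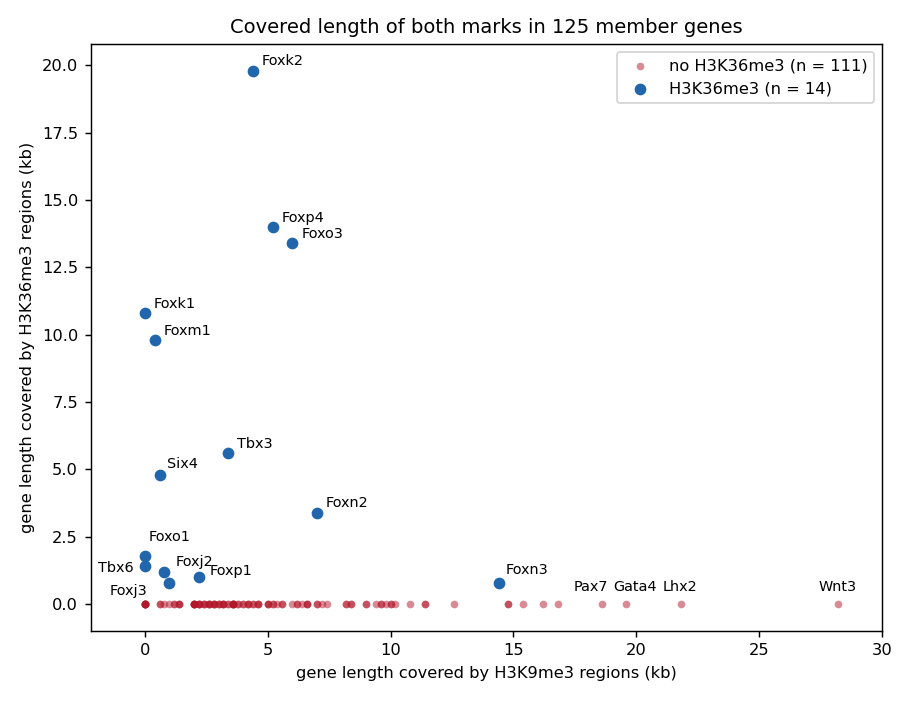
Length of each of the 125 genes covered by H3K9me3 regions (x axis, kb) and by H3K36me3 regions (y axis, kb); blue points are the 14 genes with H3K36me3 and red points the 111 without. The 6 genes with 5600 bp or more of H3K36me3, up to 19800 bp in Foxk2, have from 0 to 6000 bp of H3K9me3. The median H3K9me3 of the 111 genes without H3K36me3 is 3800 bp, which lies within that range. Foxn3 has 14400 bp of H3K9me3 with 800 bp of H3K36me3, and Wnt3, with 28200 bp of H3K9me3, has no H3K36me3.

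Both marks occurred in 11 genes, mostly in separate places. H3K9me3 lay in the start window of 6 of the 14 genes with H3K36me3 and of 99 of the 111 without. Of the 6, Foxp1 had its 400 bp in the part of the window outside the gene. In Tbx3 the first region began 923 bp behind the start. In other genes the split ran the same way, with 970 of 7525 and 3149 of 13768. In Foxm1 a 600 bp H3K9me3 region crossed the start and the H3K36me3 region began further in. In Foxj2 the H3K9me3 region crossed the start as well, and the H3K36me3 regions began 18069 and 21269 bp behind the start. Foxp4 had 7 H3K9me3 regions, of which the first crossed the start, and 11 H3K36me3 regions between 20594 and 55393 bp from it, with no shared bin. Its last H3K9me3 region, at 22794 to 23393 bp, lay between H3K36me3 regions at 20594 to 22193 and at 23594 to 24793 bp. In Six4, H3K9me3 covered 1001 to 1600 bp from the start and H3K36me3 followed from 2801 bp on.
Shared bins were found in Foxk2 (4400 bp), Foxn2 (2000 bp), Foxo3 (1600 bp), Tbx3 (1600 bp) and Foxj3 (600 bp). In Foxk2 they lay at the 3′ end, where an H3K9me3 region of 3800 bp (chr11:121167601-121171400) fell within an H3K36me3 region of 4200 bp (chr11:121167201-121171400). All H3K9me3 of Foxk2 was in shared bins. In Tbx3, H3K9me3 alone lay at 923 to 2122 and at 2323 to 2922 bp behind the start. Both marks held bins between 4523 and 6322 bp, and H3K36me3 alone followed. Foxo3 had H3K9me3 near its start without H3K36me3, and shared bins around 10 kb and around 69 kb. As each list joined WT and G34R cells, a shared bin does not place both marks in the same cells.

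The 12 genes without H3K9me3 were Six5, Foxa3, Foxh1, Foxk1, Foxn1, Foxo1, Foxr1, Foxs1, Tbx6, Tbx10, Tbx19 and Wnt16. Of these, Foxk1, Foxo1 and Tbx6 carried H3K36me3. The median of their start windows was 56 CpG, against 118 for the 113 genes with H3K9me3, while the median G+C was 56.0% and 58.0%. The set was not uniform: Foxk1, Foxo1, Foxa3 and Six5 had 138, 226, 137 and 171 CpG in their windows.

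Neighbouring genes and other annotated genes on the same bins bear on these counts. Of the 125 genes, 44 shared at least 1 bin with another annotated gene, and 5 shared every bin. H3K9me3 bins were wholly of this kind in 7 carriers. With shared bins left out, 88.3% of the 120 remaining genes carried H3K9me3 and 11.7% carried H3K36me3, against 40.6% and 34.7% of other genes. The genes were also clustered. On chromosome 2, Nkx2-4, Nkx2-2, Pax1 and Foxa2 lay between 146909052 and 147872705 bp and had 100%, 88.1%, 26.6% and 100% of their bins in H3K9me3 regions. On chromosome 5, Tbx3 (chr5:120120678-120134733) with both marks was followed by Tbx5 (chr5:120284672-120335227) with H3K9me3 over 16.5% and no H3K36me3. Such neighbours should not be counted as independent observations.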

How the data were processed

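The authors aligned reads of the 4 libraries to mm9 with Bowtie 1.0.0 (versions per the submitters' processing notes), removed duplicates and counted reads in 200 bp bins with SeqMonk. Bins in annotated genes above a high percentile in WT or G34R cells were joined with bedtools 2.20.1. The deposited lists hold 3 columns (chromosome, start, end) and no read value, so depth and signal are unknown. No region is narrower than 600 bp, and 0 regions touch no annotated gene of any type. The comparisons used autosomal protein-coding genes only, so regions in other genes or on sex chromosomes did not enter them. Bins outside genes were not considered, so the upstream side of a start window was open to listing only where another gene or transcript lay.

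Both lists end chromosome 13 at 120284312, its length in NCBIM37. Genes came from GENCODE vM1, whereas the authors restricted their lists to UCSC genes, so a gene or start that differs between the annotations may be unlisted for that reason, which bears on the background shares too. The start is the 5′ end of the gene record. A gene carried a mark if 1 bp of a region lay in it. Bins were classed as start, coding, untranslated, other exon or intron, in that order, and by G+C in bands of 5 percentage points. With 1 library per group no test was run. The families and gene lists were chosen with earlier results of these data known. Genes named are, for each mark, the one with the most covered sequence per family, the 10 with the most over all families, those with both marks, those with the most in the start window and a fixed list of 16; further genes in the text were picked with their values in view. A few genes of the families are counted but not reported by name here. The overlap code was tested on simulated data (300 gene models), with 0 differences from a count base by base. Python 3.11.15, NumPy 2.4.6, SciPy 1.17.1 and matplotlib 3.10.9 were used. Alternatives covered region width, window size, shared bins, the Wnt genes, G+C scale and chromosome 8.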

Additional observations from a re-analysis of the deposited data

How the results depend on the processing

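Of 35 alternative values, 24 moved by less than the interval of the value reported, or by less than 1.5 times for the count, and 11 moved by more. Using only regions of at least 1 kb lowered the share of genes with H3K9me3 from 90.4% to 83.2% (25.1% of other genes) and that of starts from 84.0% to 73.6% (10.8%), since fewer regions entered. Wnt genes alone gave 94.7% for H3K9me3 and 0% for H3K36me3. Coding bins over 1 kb from the start gave 75.2% for H3K9me3 (19.8%). With G+C taken over 1 kb the bin ratios were 3.01 for H3K9me3 and 0.299 for H3K36me3, and without chromosome 8, an alternative chosen after seeing the data, the H3K9me3 ratio was 3.59; the cause was not tested. The median over genes, in place of the pooled bins, was 41.7% for H3K9me3 (0% in other genes) and 0% for H3K36me3, where the other genes also had a median of 0%, so that the lower pooled share of H3K36me3 was not seen on that measure. Counting a bin in both lists instead of both marks in a gene gave 5 in place of 11 genes. No paired analysis was possible because the lists carry no value per library, and WT and G34R cells were not compared for the same reason. The lists are bounded by a percentile, so an unlisted gene may still carry a mark, and unknown depth sets no lower limit on what was missed.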
